A study of Saccharomyces cerevisiae with 2 samples.

Results

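Tandem intergenic regions are the stretches between neighbouring genes that are read in the same direction. In such a stretch the upstream gene ends and the downstream gene begins, so that a single gap holds 1 terminator and 1 promoter. A divergent gap, between genes that point away from each other, holds promoters at both ends, and a convergent gap, between genes that point at each other, holds terminators at both ends. In budding yeast, promoters typically carry a nucleosome-depleted stretch just upstream of the transcription start, kept open by general regulatory factors and by remodellers such as RSC. Hsp90 is a chaperone that folds and stabilises many regulatory proteins, and it is encoded in this yeast by HSP82 and HSC82.

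Gaps were taken between adjacent protein-coding genes of the R64 annotation (sacCer3) on 16 nuclear chromosomes, with a length of 100 to 1500 bp, and a gap was tandem when the W or C of both systematic names was the same. This gave 2610 tandem gaps of 5279 gaps in all, beside 1370 divergent and 1299 convergent gaps. Of the tandem neighbours, 70 overlapped or touched, 53 lay closer than 100 bp and 165 farther apart than 1500 bp, and these are not members. Tandem gaps had a median length of 390 bp (quartiles 280 and 571 bp), summed to 1236 kb and made up 10.2% of the mapped genome. The downstream gene lay on the plus strand in 1317 and on the minus strand in 1293 of them. The rule itself uses gene positions and no measured value.

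Accessible chromatin was measured by DNase-seq, in which DNase I cuts isolated nuclei at the sites it can reach, and the deposited lists give stretches of such sites as hotspots. The mutant cells carried the temperature-sensitive Hsp90 allele G170D, and the comparison cells were wild type (WT), both in the W303 laboratory background. Both were grown in YPD at 30 °C and then held at 37 °C for 15 min, and no library from before the shift was analysed here, so a difference already present at 30 °C cannot be told apart from one that came with the shift. Each strain gave 1 library, with 5988 hotspots in G170D and 7050 in WT, covering 27.6% and 31.8% of the genome, and the depth behind each list is unknown. Differences between strains therefore have no replicate check and no p-value. Gaps are not replicates, and the 95% Wilson intervals given with shares cover counting error over gaps only. A hotspot list cannot tell a region that is open in fewer cells from one that is cut less in every cell.

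Most tandem gaps were touched by a hotspot in both strains, and more gaps were touched in WT than in the mutant. A hotspot touched at least 1 bp of 1855 tandem gaps in G170D (71.1%, interval 69.3 to 72.8) and of 2038 in WT (78.1%, 76.5 to 79.6), beside 69.0% and 75.6% of gaps of all orientations. In bases, 53.5% of the tandem length was covered in G170D and 59.5% in WT. The median tandem gap was covered over 58.6% of its length in G170D and 69.2% in WT. The whole gap was covered in 637 tandem gaps in G170D and 764 in WT.

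By class, 1749 tandem gaps were touched in both strains, 106 in G170D alone, 289 in WT alone and 466 in neither. Over gaps of all orientations those classes took 65.2%, 3.77%, 10.4% and 20.6%, and the tandem shares of 67.0%, 4.06%, 11.1% and 17.9% were close to them. Of the gaps touched in WT, 85.8% (84.2 to 87.3) were touched in G170D too, and of those touched in G170D, 94.3% (93.1 to 95.3) were touched in WT. The excess of gaps in WT alone depended in part on list length: when the WT list was cut to its 5988 hotspots of highest score, the length of the G170D list, 158 tandem gaps were in G170D alone and 223 in WT alone. Neighbouring gaps can share a hotspot, as did 210 tandem gaps in G170D and 158 in WT.

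Set beside the other orientations, tandem gaps stood between divergent and convergent ones. Divergent gaps were touched in 83.1% of cases in G170D (81.1 to 85.0) and 87.9% in WT (86.0 to 89.5), and convergent gaps in 49.9% (47.2 to 52.6) and 57.6% (54.9 to 60.2). Covered bases followed the same order, with 65.2% in G170D and 70.2% in WT for divergent gaps and 37.3% and 44.1% for convergent gaps. The orientations differ in length, with medians of 485.5 bp for divergent and 249 bp for convergent gaps, and longer gaps are touched more often.

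Within classes of equal length the order of the touched shares held for short and middle gaps. Among gaps of 100 to 299 bp, G170D hotspots touched 60.2% of tandem gaps (56.7 to 63.6), 75.7% of divergent gaps (71.2 to 79.7) and 42.9% of convergent gaps (39.5 to 46.3). Among gaps of 300 to 499 bp these shares were 68.3%, 81.4% and 55.6%, and among gaps of 500 to 799 bp they were 81.7% (78.1 to 84.8), 87.9% (84.4 to 90.7) and 68.0% (58.3 to 76.3), where the tandem and divergent intervals already met. Among gaps of 800 to 1500 bp, the touched shares of tandem and divergent gaps no longer differed beyond their intervals, at 89.1% (85.2 to 92.1) and 89.0% (84.5 to 92.3), and convergent gaps had 77.0% (67.1 to 84.6). In covered bases the order held in this class too, with 55.8% of tandem and 63.6% of divergent bases in G170D and 62.0% and 67.8% in WT. Full cover was seen in 14.0% of tandem gaps (10.6 to 18.2) and 26.0% of divergent gaps (21.0 to 31.7) in G170D. In WT the shares with full cover were 18.4% (14.5 to 23.0) and 24.4% (19.5 to 30.0), with intervals that overlapped. The touched shares in WT had the same order up to 799 bp. From the shortest to the longest class they were 67.3%, 77.0%, 87.7% and 92.2% for tandem gaps. Divergent gaps had 81.1%, 86.7%, 93.1% and 91.3%, and convergent gaps 51.6%, 64.3%, 68.0% and 80.5%.

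**Figure D1:**
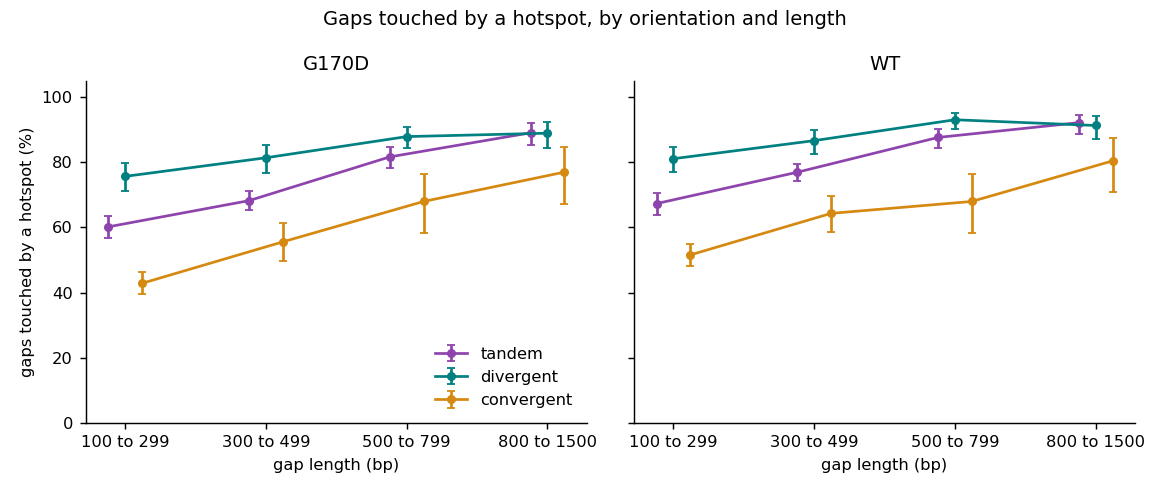
Share of gaps touched by at least 1 bp of a hotspot (y axis, percent) by class of gap length (x axis, bp) in G170D (left) and WT (right), for tandem, divergent and convergent gaps. Points are shares and bars are 95% Wilson intervals; tandem gaps lie between the other orientations up to 799 bp and their touched share meets that of divergent gaps at 800 to 1500 bp (89.1% and 89.0% in G170D).

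Longer tandem gaps also kept their hotspot more often. Of tandem gaps touched in WT, the share touched in G170D as well was 80.7% at 100 to 299 bp (77.1 to 83.8), 83.3% at 300 to 499 bp, 89.7% at 500 to 799 bp and 95.6% at 800 to 1500 bp (92.6 to 97.4). Divergent gaps had 87.9%, 90.4%, 91.3% and 97.0% in the same classes, and convergent gaps 73.9%, 82.6%, 89.7% and 95.7%. A longer gap offers more bases that a hotspot can touch, so these shares are not a measure of how firmly a region stays open.

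The side of a tandem gap next to the start codon was covered only a little more than the side next to the stop codon. Each gap was divided at its midpoint into a start side, next to the start codon of the downstream gene, and a stop side, next to the stop codon of the upstream gene. Gaps lie between coding bodies without untranslated regions, so this cut does not part promoter from terminator. The start side was covered over 54.8% of its bases in G170D and 61.3% in WT, and the stop side over 52.1% and 57.7%. Among tandem gaps whose sides differed, the start side had more cover in 658 of 1215 gaps in G170D (54.2%, 51.3 to 56.9) and in 712 of 1272 in WT (56.0%, 53.2 to 58.7). Many gaps were open from end to end or across the midpoint: hotspots reached both sides in 1516 gaps in G170D and 1661 in WT. They reached the start side alone in 181 and 217 gaps, and the stop side alone in 158 and 160.

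The tilt towards the start codon was seen in longer gaps and not in the shortest. In gaps of 400 to 799 bp, the share of open bases changed little between 100 and 260 bp upstream of the start codon, as given below. In the shortest gaps most of that stretch lies past the midpoint or outside the gap, so the lack of a tilt there does not compare promoters with terminators. At 100 to 299 bp the start side had more cover in 47.5% of differing gaps in G170D (41.3 to 53.8) and 49.1% in WT (43.2 to 55.0), both with intervals that include an even split. At 300 to 499 bp the start side had more in 54.0% in G170D (49.4 to 58.6), which includes an even split, and 56.6% in WT (52.1 to 61.1). At 500 to 799 bp these shares were 56.6% (50.8 to 62.3) and 59.7% (54.1 to 65.1). At 800 to 1500 bp they were 58.2% (51.8 to 64.2) and 57.8% (51.4 to 63.9). Read by strand, the start side had more in 55.7% of plus-strand and 52.4% of minus-strand gaps in G170D, and 57.8% and 53.9% in WT. The minus-strand intervals include an even split in both strains (48.3 to 56.4 and 49.9 to 57.9).

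Base by base, a tandem gap was open most often away from both coding ends. This was read in the 937 tandem gaps of 400 to 799 bp, in steps of 10 bp. Counted upstream from the start codon, the share of gaps with the base in a hotspot was highest at 180 bp in G170D (60.3%) and at 170 bp in WT (67.0%). The share was nearly flat around these points, with 59.3% in G170D and 65.3% in WT at 100 bp, and 59.4% and 64.9% at 260 bp. It was 51.4% in G170D and 59.0% in WT at 10 bp from the start codon, and 38.5% and 43.2% at 100 bp inside the downstream coding body. Counted from the stop codon of the upstream gene, the share was 44.5% in G170D and 49.8% in WT at 10 bp into the gap, and 31.6% and 34.0% at 100 bp inside the upstream coding body. The bases just upstream of a start codon were thus open more often than those just past a stop codon in both lists. In divergent gaps of the same length (552) the highest share was 69.0% in G170D and 75.4% in WT, and in convergent gaps (193) it was 44.0% and 50.8%.

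**Figure D2:**
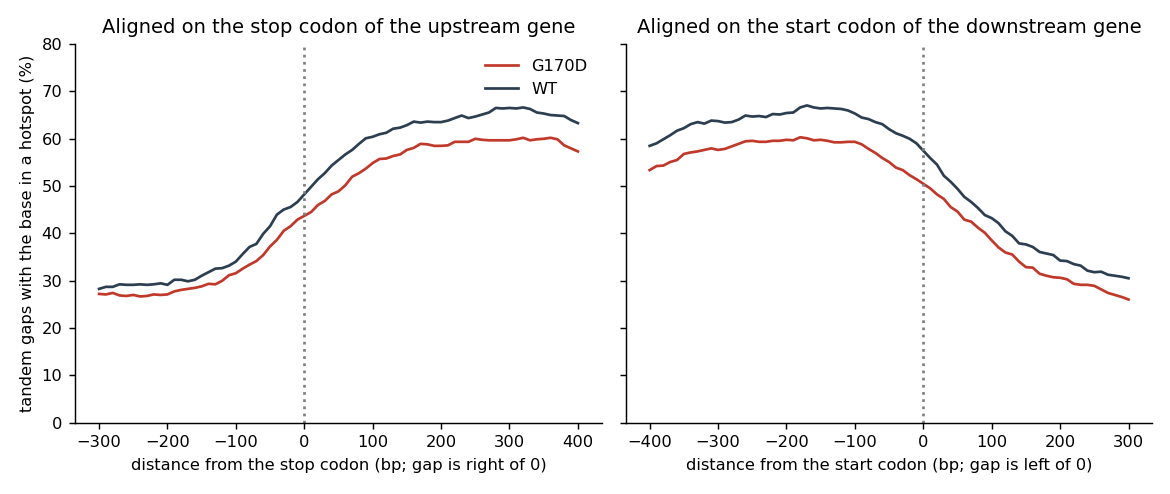
Share of the 937 tandem gaps of 400 to 799 bp whose base lies in a hotspot (y axis, percent) by distance in bp from the stop codon of the upstream gene (left) and from the start codon of the downstream gene (right), for G170D and WT. The G170D line runs below the WT line throughout. Both have their highest point about 170 to 180 bp upstream of the start codon (60.3% in G170D, 67.0% in WT), within a nearly flat stretch.

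Most hotspots in tandem gaps ran on into a coding body. Of gaps touched in G170D, 62.5% (60.3 to 64.7) had a hotspot that crossed the start codon and 57.7% (55.5 to 60.0) one that crossed the stop codon, against 66.2% (64.1 to 68.2) and 59.2% (57.1 to 61.3) in WT. In 637 touched gaps in G170D (34.3%) and 764 in WT (37.5%) a single hotspot spanned the whole gap. Hotspots stayed within the gap at both ends in 16.5% of touched gaps in G170D and 14.3% in WT. A gap seldom held several hotspots: 125 touched gaps in G170D (6.74%) and 118 in WT (5.79%) had more than 1, and of these 2 in G170D and 1 in WT were shorter than 300 bp.

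The mutant had less open sequence in tandem gaps by many small differences. Covered length was lower in G170D in 1167 tandem gaps (44.7%), higher in 474 (18.2%) and equal in 969, beside 40.8% lower and 17.5% higher over gaps of all orientations. Of the 1641 tandem gaps that differed, 71.1% (68.9 to 73.3) were less covered in G170D, near the 66.5% (63.3 to 69.7) of divergent and 71.5% of convergent gaps. The lower gaps had a median of 73 bp less cover and the higher ones 72 bp more, so that the directions differed in number while the typical sizes were close. Changes of over 200 bp were found in 229 gaps downwards and 112 upwards. On each of 16 chromosomes more of the differing tandem gaps were lower than higher, from 57.1% of them on chromosome VI (39.1 to 73.5) to 76.8% on chromosome XV (69.2 to 82.9).

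**Figure D3:**
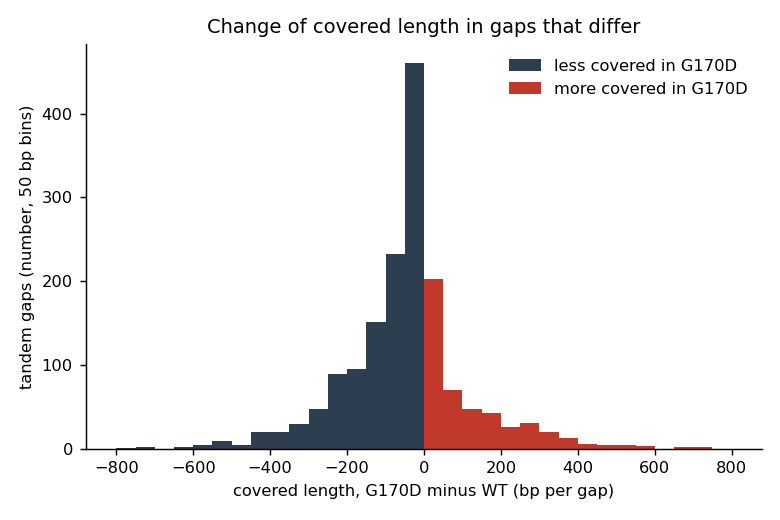
Number of tandem gaps (y axis) by the difference in covered length, G170D minus WT (x axis, bp per gap, bins of 50 bp), for the 1641 gaps that differ. The 1167 gaps with less cover in G170D outnumber the 474 with more, and most differences in either direction are under 200 bp.

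Base by base, 596 kb of tandem sequence were covered in both strains, 64.9 kb in G170D alone and 139 kb in WT alone. Thus 90.2% of the tandem bases covered in G170D were covered in WT, and 81.0% of those covered in WT were covered in G170D. The share of WT cover that was missing in G170D was similar on the start side and the stop side. On the start side 18.5% of the WT-covered bases were not covered in G170D, and on the stop side 19.4%.

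The state of a whole gap in WT went with its state in G170D. Of 764 tandem gaps fully covered in WT, 489 (64.0%) were fully covered in G170D, 251 (32.9%) partly and 24 (3.14%) not at all. Of 1274 gaps partly covered in WT, 124 (9.73%) were full, 885 (69.5%) partly covered and 265 (20.8%) closed in G170D. Of 572 gaps closed in WT, 24 (4.20%) were full, 82 (14.3%) partly covered and 466 (81.5%) closed in G170D. Full closure of a WT-covered gap was therefore seen mostly in partly covered ones.

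Where a tandem gap held a hotspot of each strain that overlapped one to one, with both midpoints inside the gap, the mutant's hotspot was narrower at both edges. There were 870 such pairs, with a median width of 394.5 bp in G170D and 487 bp in WT. The edge on the start side lay a median of 23 bp further in (95% order-statistic interval 19 to 26) and the edge on the stop side 20 bp further in (17 to 24). The start-side edge was further in for 625 pairs and further out for 226, and the stop-side edge for 617 and 240. Both edges were further in for 478 pairs (54.9%) and both further out for 96 (11.0%). The start-side edge lay a median of 6 bp upstream of the start codon in G170D and 27 bp inside the coding body in WT (written as -27 bp). The midpoint moved by a median of -2 bp, that is away from the start codon, with an interval from -5 to 0.5 bp. The start-side edge moved further in than the stop-side edge in 53.1% of the 867 pairs in which their shifts differed (49.7 to 56.4), an interval that includes an even split. Pairs in divergent and convergent gaps were narrower by similar amounts, with median width differences of -45.5 bp (-55 to -38) and -42 bp (-55 to -30) against -51 bp (-59 to -44) in tandem gaps.

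Gaps touched in 1 strain were covered by weaker hotspots, as ranked by the authors' score within each list. The highest-scoring hotspot of a tandem gap stood at a median percentile of 69.7 of the G170D list and 74.0 of the WT list when the gap was touched in both strains. It stood at 51.3 for gaps in G170D alone and at 32.0 for gaps in WT alone. Of 374 tandem gaps whose best G170D hotspot was in the top 10% of its list, 24 were untouched in WT, and of 391 with a WT hotspot of that rank, 9 were untouched in G170D. The hotspot of a 1-strain gap met one of the other strain outside the gap in 34 of 106 cases for G170D alone and 59 of 289 for WT alone.

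The 6 tandem gaps with the largest loss of cover, among those whose 2 genes have standard symbols, lay in front of BNA3, RGT1, HKR1, PRE10, STD1 and CDA1. The gap from NUP82, a nucleoporin gene, to BNA3, a kynurenine aminotransferase gene (chromosome X, 322158 to 323385), had 233 bp covered in G170D and 940 bp in WT. What remained in G170D was a hotspot 63 to 295 bp upstream of the BNA3 start, and the WT hotspot of 625 bp at the NUP82 end had no counterpart. The gap from PTM1 to RGT1, whose product represses hexose transporter genes (chromosome XI, 364194 to 365604), had 366 bp in G170D and 1013 bp in WT, with 2 hotspots in each strain that were both narrower in G170D. It also holds a small nucleolar RNA gene.

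From RAD30, a translesion polymerase gene, to HKR1, an osmosensor gene (chromosome IV, 1305073 to 1306266), G170D had 578 bp and WT 1188 bp, and this gap holds a tRNA gene. A single WT hotspot of 1359 bp stood there against separate hotspots of 500 and 229 bp in G170D. From PIP2, an activator of peroxisomal genes, to PRE10, a proteasome subunit gene (chromosome XV, 1018747 to 1020221), 899 bp were covered in G170D and all 1475 bp in WT. From RAT1, the nuclear exonuclease gene, to STD1, a gene of the glucose-sensing pathway (chromosome XV, 417682 to 418629), 61 bp were covered in G170D and 624 bp in WT. From UBC12 to CDA1, a chitin deacetylase gene of the spore wall (chromosome XII, 744852 to 745619), G170D had 0 bp and WT 557 bp in a single hotspot. Of these 6 gaps, all but that of CDA1 thus kept some cover in G170D.

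Among the 6 largest increases, 4 were in gaps untouched in WT, but this was not typical of gaps with more cover. Of all 474 tandem gaps with more cover in G170D, 106 were untouched in WT. Of the 1167 with less cover in G170D, 289 were untouched in G170D. Most gaps in either direction were thus touched in both strains. The gap from SOL4 to MGA1, a gene related in sequence to the heat shock factor (chromosome VII, 986740 to 988048), had 710 bp in G170D and 0 bp in WT, in a single hotspot 277 to 986 bp upstream of the start. From HAC1, the activator gene of the unfolded protein response, to AGX1, a glyoxylate aminotransferase gene (chromosome VI, 76148 to 76830), the whole 683 bp were covered in G170D and 0 bp in WT. The G170D hotspot there spanned 3703 bp, so it ran far into both neighbours. From MME1 to PAH1, the phosphatidate phosphatase gene (chromosome XIII, 592629 to 593366), 587 bp were covered in G170D and 0 bp in WT.

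From ECM32 to BMH1, a 14-3-3 protein gene (chromosome V, 545056 to 545610), all 555 bp were covered in G170D and 0 bp in WT. The other increases were in gaps that WT hotspots touched. From RFC3 to PCL1, a cyclin gene of the Pho85 kinase (chromosome XIV, 87241 to 87896), 575 bp were covered in G170D and 14 bp in WT. From SEC61 to FBP1, the gene of the gluconeogenic fructose-1,6-bisphosphatase (chromosome XII, 874793 to 875735), all 943 bp were covered in G170D and 396 bp in WT, in a gap that holds a tRNA gene. All 6 of these gaps had a G170D hotspot in the upper part of its list, at percentiles from 63.2 to 94.5.

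**Figure D4:**
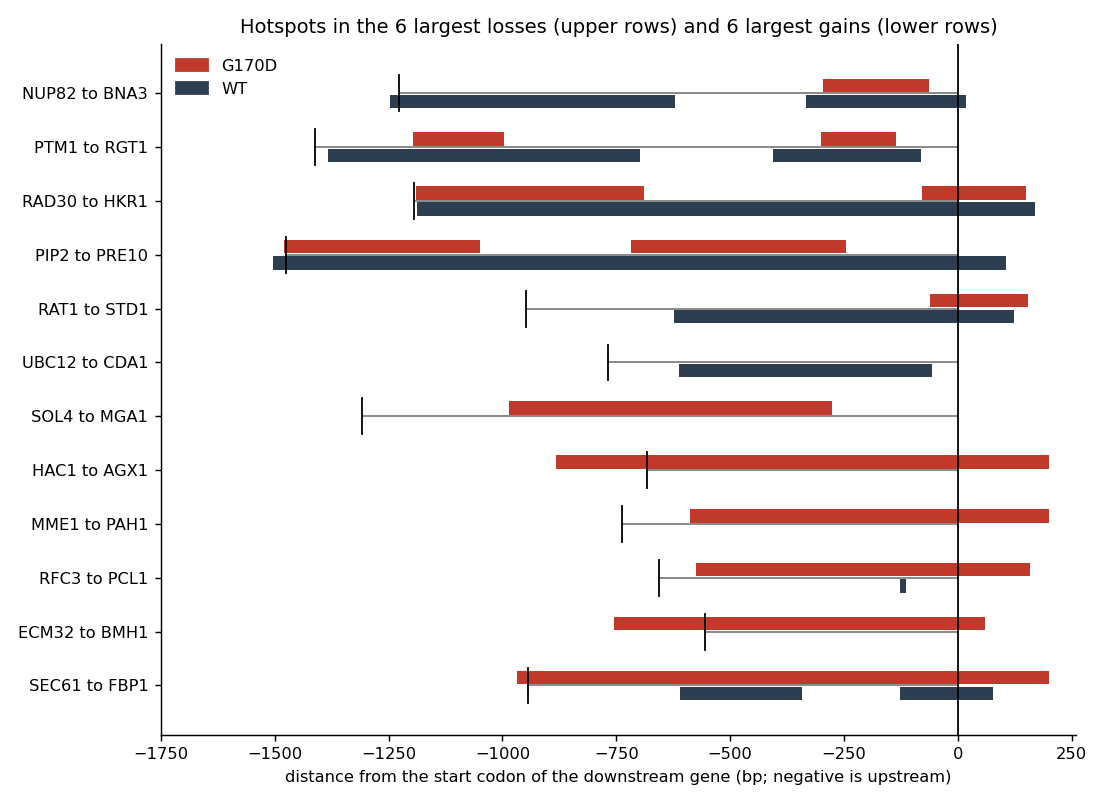
Hotspots of G170D (red, upper bar of each row) and WT (dark, lower bar) in the 12 tandem gaps with the largest losses and gains of cover, drawn by distance from the start codon of the downstream gene (x axis, bp). Black ticks mark the stop codon of the upstream gene, and hotspots are drawn to at most 200 bp beyond either end of the gap; NUP82 to BNA3 keeps 233 of 940 bp, and SOL4 to MGA1 has 710 bp in G170D against 0 bp in WT.

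Among gaps in WT alone, CDA1 was followed by the gap from JSN1 to GRR1, an F-box protein gene of glucose signalling (chromosome X, 594328 to 595060), with 0 bp in G170D and 540 bp in WT. From SPT10, an activator gene of histone genes, to MCO6 (chromosome X, 181710 to 182297), G170D had 0 bp and WT 501 bp, and the WT hotspot of 2118 bp lay mostly in the coding body of MCO6 and beyond it. From PMA1, the plasma membrane proton pump gene, to LEU1, a leucine synthesis gene (chromosome VII, 478653 to 479909), G170D had 0 bp and WT 496 bp in hotspots of 216 and 280 bp. The gaps with the most hotspots wholly inside held 2 of them in a strain, a number reached by 22 tandem gaps. The first of these along the genome was that from NTH2, a trehalase gene, to ECM15 (chromosome II, 237468 to 238940), with 768 bp covered by 4 hotspots in G170D and 1172 bp by 2 in WT. From KTR4 to BEM1, a polarity scaffold gene (chromosome II, 620304 to 620871), 55 bp were covered in G170D and 129 bp in WT. From RPS14A, a ribosomal protein gene, to SYP1, an endocytosis gene (chromosome III, 176439 to 177499), 418 bp were covered in G170D and 860 bp in WT.

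Most tandem gaps in front of stress genes were touched in both strains, as were 67.0% of all tandem gaps. Of all tandem gaps, 4.06% were in G170D alone and 11.1% in WT alone, and 44.7% were less and 18.2% more covered in G170D. Of 13 tandem gaps that lead into a general stress gene of the activators Msn2 and Msn4, 11 were touched in both strains, 1 in G170D alone and 0 in WT alone, with 1 less covered, 5 more covered and 7 equal in G170D and a median difference of 0 bp. Of their bases 88.3% were covered in G170D and 77.0% in WT, a difference that lay mostly in the gaps of TFS1 and DDR48. The gap upstream of TFS1, a carboxypeptidase Y inhibitor gene (chromosome XII, 513822 to 514107), had all 286 bp covered in G170D and 0 bp in WT. That of DDR48, a stress protein gene named after its value was seen (chromosome XIII, 608141 to 608688), had 540 bp in G170D and 129 bp in WT. ALD3, an aldehyde dehydrogenase gene (619 bp in G170D and 601 bp in WT), and ALD4, its mitochondrial counterpart (450 and 450 bp), differed little. Of 18 gaps that lead into targets of the heat shock factor Hsf1, 15 were touched in both strains, 0 in G170D alone and 1 in WT alone. Of the 18, 9 were less covered, 2 more and 7 equal, a share of less covered gaps near that of all tandem gaps. Of their bases 66.9% were covered in G170D and 85.3% in WT, beside 53.5% and 59.5% over all tandem gaps. The median difference was -6.5 bp. The net difference lay mostly in the gaps of AHA1 and of SSA4, the latter named after its value was seen (249 bp in G170D and 766 bp in WT). The gap upstream of AHA1, the gene of the Hsp90 ATPase activator (chromosome IV, 892493 to 892874), had 0 bp covered in G170D and all 382 bp in WT. BTN2, a sorting factor gene for misfolded proteins, had 319 bp in G170D and 481 bp in WT, and APJ1, a J-domain protein gene, 236 and 259 bp.

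The other groups of downstream genes varied in their gaps touched in 1 strain. Over all tandem gaps, 4.06% were in G170D alone and 11.1% in WT alone, and 44.7% were less and 18.2% more covered in G170D. Of 36 gaps leading into ribosome assembly genes, 1 was in G170D alone and 7 in WT alone, among them those of DIM1 (0 bp in G170D and 19 bp in WT), IMP4 (0 and 190 bp) and MAK16 (0 and 137 bp). Of the 36, 19 were less covered, 5 more and 12 equal. Their median cover was 31.5% in G170D and 67.3% in WT, beside 58.6% and 69.2% over all tandem gaps. The difference was smaller in bases, with 40.3% covered in G170D and 55.6% in WT, beside 53.5% and 59.5% over all tandem gaps. Of 15 gaps leading into ergosterol genes, 3 were in G170D alone and 0 in WT alone: ERG1, the squalene epoxidase gene, had all 405 bp covered in G170D and 0 bp in WT, ERG10 342 and 0 bp, and ERG8 57 and 0 bp. Of the 15, however, 6 were less covered, 4 more and 5 equal, and 68.8% of their bases were covered in G170D and 71.2% in WT. The larger decreases, named after their values were seen, were at the reductase genes HMG2 (260 bp in G170D and 568 bp in WT) and HMG1 (632 and 924 bp) and at ERG7, the lanosterol synthase gene (380 and 614 bp). Of 12 gaps leading into iron regulon genes, those of FIT2, a cell wall mannoprotein gene (655 bp in G170D and 0 bp in WT), and SIT1, a siderophore transporter gene (143 and 0 bp), were in G170D alone, and of the 12, 3 were less covered, 5 more and 4 equal.

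The counts that follow stand beside 67.0% of all tandem gaps touched in both strains, 4.06% in G170D alone and 11.1% in WT alone. Of all tandem gaps, moreover, 44.7% were less and 18.2% more covered in G170D. Of 10 gaps leading into proteasome genes, 6 were less covered in G170D, 0 more and 4 equal, with PRE8 in WT alone (0 bp in G170D and 35 bp in WT). Of 39 gaps leading into amino acid synthesis genes, 12 were less covered, 9 more and 18 equal, with ARO1 (96 bp in G170D and 0 bp in WT) and ILV6 (147 and 0 bp) in G170D alone. HOM3 was in WT alone by a single base. Of 11 gaps of glycolysis and fermentation genes, 10 were touched in both strains and 5 were less covered, 1 more and 5 equal, with ADH1 (1078 and 1078 bp) and FBA1 (630 and 630 bp) fully covered in both, and HXK2, the main hexokinase gene, had 0 bp in G170D and 83 bp in WT. All 5 gaps of hexose transporter genes were touched in both strains, 2 of them less covered, 2 more and 1 equal, with GAL2 at 802 bp in G170D and 346 bp in WT, HXT10 at 825 and 1251 bp and HXT5 at 937 and 937 bp. Of 21 gaps of respiratory chain genes, 2 were in G170D alone, among them ATP2 (130 and 0 bp), and 3 in WT alone, among them ATP4 (0 and 11 bp) and QCR9 (0 and 424 bp). Of those 21, 8 were less covered, 6 more and 7 equal. The less covered counts of respiratory chain and of glycolysis and fermentation genes were near the share over all tandem gaps.

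Ribosomal protein genes differed by the end of the gap at which they stood. Of 59 tandem gaps with a cytosolic ribosomal protein gene downstream, that is with its promoter, 22 were less covered in G170D, 17 more and 20 equal, and the median cover was 94.7% in G170D and 91.4% in WT. Of 64 tandem gaps with such a gene upstream, that is with its terminator, 46 were less covered (71.9%), 8 more and 10 equal, and the median cover was 58.7% in G170D and 75.9% in WT. Of all tandem gaps, 44.7% were less and 18.2% more covered. In bases, 72.6% of the 59 gaps were covered in G170D and 75.3% in WT. For the 64 gaps these shares were 52.8% and 65.9%, and over all tandem gaps 53.5% and 59.5%. Only 3 gaps had ribosomal protein genes on both sides. The reading by upstream gene was made after the values by downstream gene had been seen, and the difference between the 2 roles was not tested.

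Most changes past the end of a ribosomal protein gene were modest, with a median of -50 bp. Of the 64 gaps, 6 were lower by over 200 bp and 2 higher, beside 8.77% and 4.29% of all tandem gaps. With such a gene downstream, 5 of 59 gaps were lower by over 200 bp and 4 higher. Large losses were thus about as common past these genes as over all tandem gaps. On the start side of those 64 gaps, cover was 56.8% in G170D and 70.5% in WT, and on the stop side 48.7% and 61.2%, so both sides had less. The largest drop, named after its value was seen, was between RPS8B and SSA4, a heat-inducible Hsp70 gene (chromosome V, 363703 to 364588), with 249 bp in G170D and 766 bp in WT. This gap is counted among the Hsf1 targets too. Of gaps with ribosomal protein genes downstream, 1 was in G170D alone and 8 in WT alone, among them RPL35B (0 bp in G170D and 46 bp in WT) and RPL5 (0 and 320 bp). Over all tandem gaps, 4.06% were in G170D alone and 11.1% in WT alone. Of 27 gaps leading into mitochondrial ribosomal protein genes, MRP35 (202 bp in G170D and 0 bp in WT) and MRP49 (270 and 0 bp) were in G170D alone, and 6 were in WT alone, among them MRPL22 (0 and 172 bp). Of those 27, 14 were less covered, 5 more and 8 equal, beside 44.7% less and 18.2% more over all tandem gaps.

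**Figure D5:**
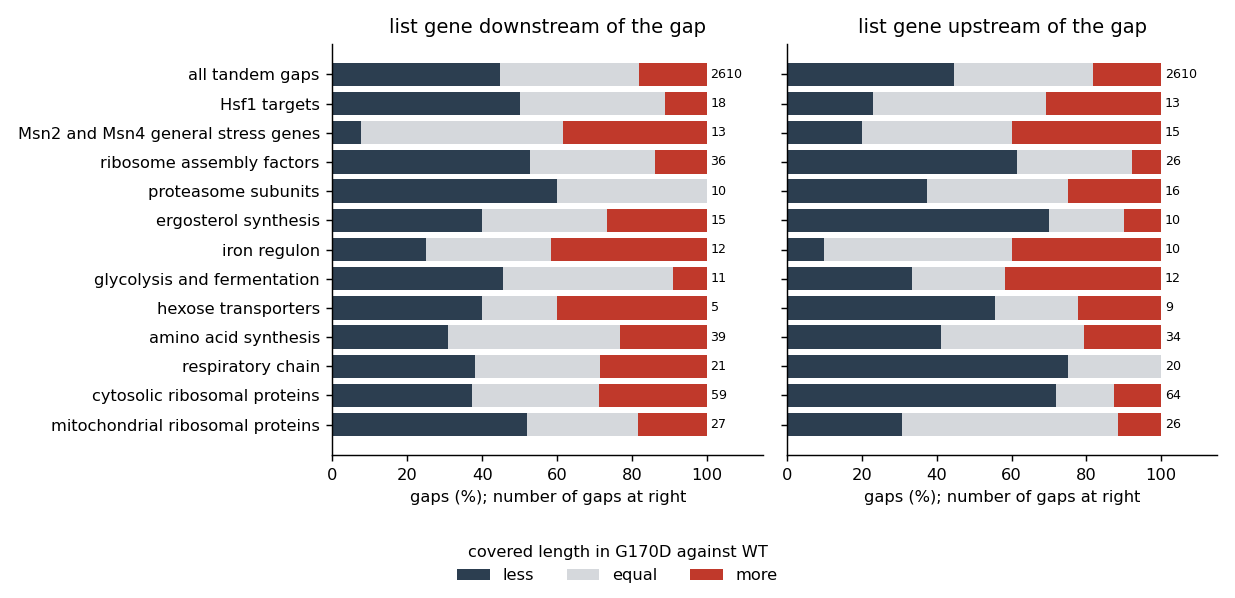
Share of tandem gaps (x axis, percent) less covered, equally covered and more covered in G170D than in WT, for gaps with a gene of each list downstream (left) or upstream (right), with the number of gaps beside each bar. Cytosolic ribosomal protein genes have 22 of 59 gaps less covered when downstream and 46 of 64 when upstream, against 1167 of all 2610 tandem gaps.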

How the data were processed

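DNase-seq hotspots came from 1 G170D and 1 WT culture, grouped by their source labels. Per the submitters' processing notes, FastQC 0.10.1, Bowtie 1.0.0 and build sacCer3 were used. Which program called hotspots, and with what cutoff, was not given in the sources used here. Per the labels, isolated nuclei had limited digestion and fragments described as short, with the sign >650 bp, were sequenced for 101 cycles. The deposited lists give chromosome, start, end and the authors' score, called per library; the scale of the score is unknown, so it only ranked hotspots within its own list. Starts counted from 0 were converted, and coordinates count from 1.

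Genes were RefSeq R64 coding bodies without untranslated regions, 6002 in number, with strand from the systematic name. Where a gene lay inside another, the one that ends last was taken as the neighbour. Cover, hotspot numbers, sides, edges of hotspots that overlap one to one, and gene lists were counted per gap. Shares have 95% Wilson intervals and medians of edge shifts 95% order-statistic intervals. Depth is unknown, and its effect on the lists was not separated from strain.

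Gaps were named by rule: the 6 largest losses and 6 largest gains of cover, the 4 with the most cover in each strain alone, 3 with the most hotspots inside, all with standard symbols at both genes, and up to 3 downstream genes per list, those in 1 strain first. An item that the rule named is not reported here. The members and lists were chosen with earlier results of these data known. The code was tested on simulated lists. Promoter sequences and motifs were not analysed here. Computation used Python 3.11.15, numpy 2.4.6, pandas 2.3.3, scipy 1.17.1 and matplotlib 3.10.9.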

Additional observations from a re-analysis of the deposited data

How the results depend on the processing

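For 12 results under 12 alternatives, 128 values were obtained, of which 93 stayed within the interval or 1.5 times the count of the reported value, 35 moved and 0 reversed. Some of the unmoved values are no check of the results. Merging hotspots within 50 bp left every result unchanged. Equal list lengths left the G170D list uncut, so results from that list alone could not move. The start-side share and both edge shifts did not move under any alternative run. The number of gaps in WT alone stayed within 1.5 times the reported 289, but ranged from 223 with equal list lengths to 395 with midpoints only. The share of tandem gaps touched was 63.9% in G170D and 70.2% in WT with the upper 75% of scores, 50.8% and 56.5% with the upper 50%, 68.8% and 74.9% when at least 50 bp had to be covered, and 54.0% and 59.7% when at least 50% of the gap had to be. It was 64.4% and 73.4% without hotspots over 2000 bp and 46.3% and 52.8% with midpoints only; the WT share was 73.6% with equal list lengths and 79.7% without chromosome ends and rDNA. The share of WT-touched gaps touched in G170D was 84.0% with the upper 75% of scores, 79.2% with the upper 50%, 88.4% with equal list lengths, 81.5% with at least 50% covered, 79.7% without wide hotspots and 71.3% with midpoints only, which also gave 227 gaps in G170D alone. Of gaps that differed, 67.7% were less covered in G170D with the upper 50% of scores, 68.3% with equal list lengths and 68.9% with midpoints. More than 1 hotspot was found in 4.68% of touched gaps in G170D and 3.93% in WT with the upper 75% of scores, 2.72% and 2.24% with the upper 50%, 5.30% and 4.17% for gaps of 200 to 1000 bp, 5.57% and 4.68% without gaps overlapping non-coding genes, and 4.96% and 4.36% with midpoints; the WT share was 4.69% with equal list lengths. Fewer hotspots, fewer gaps or a stricter rule make up these alternatives by construction. Edge shifts were not computed by midpoint assignment, which they already use. No paired analysis was possible because each strain has 1 library. Depth is unknown, so cover that is missing from a list was not detected there and is not shown to be closed chromatin.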

Other observations

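Tandem gaps that wholly hold a non-coding gene were touched more often than tandem gaps as a whole, of which 71.1% were touched in G170D and 78.1% in WT. Of 73 tandem gaps with a tRNA gene, which RNA polymerase III transcribes, 70 were touched in G170D and 70 in WT, with 35 less covered in G170D and 29 more. Of 23 gaps with a small nucleolar RNA gene, which guides modification of ribosomal RNA, 20 were touched in G170D and 22 in WT, with 19 less covered in G170D (82.6%, 62.9 to 93.0) and 2 more. Over those 23 gaps 53.6% of bases were covered in G170D and 69.4% in WT, against 58.2% and 60.0% over the gaps with tRNA genes. Gaps with a non-coding gene are longer than most, and no test was made. Among all tandem gaps of 800 to 1500 bp, 89.1% were touched in G170D and 92.2% in WT. Of all tandem gaps 44.7% were less and 18.2% more covered in G170D, and the share of less covered gaps with a tRNA gene, 47.9%, was near the first of these.

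Tandem gaps within 30 kb of a chromosome end were closed more often than the others in both strains. Hotspots touched 49 of 118 such gaps in G170D (41.5%, 33.0 to 50.5) and 54 in WT (45.8%, 37.0 to 54.7), against 72.5% and 79.6% of the 2492 other tandem gaps. Covered bases made up 24.9% in G170D and 26.7% in WT near the ends, and 55.3% and 61.6% elsewhere. How uniquely reads can be placed near chromosome ends was not tested.

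Gaps with a respiratory chain gene upstream had 15 of 20 less covered in G170D and 0 more, whereas gaps with such a gene downstream had 8 of 21 less and 6 more, beside 44.7% less and 18.2% more over all tandem gaps, near which the downstream count of less covered gaps lies. This was noticed after the values were seen and was not tested.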
